A study of Komagataella phaffii with 12 samples.

Results

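The 4 libraries described here came from wild-type *Komagataella phaffii* CBS7435 grown in glucose-limited chemostats at 0.1 per h: 2 taken at the first fast stage, and 2 taken after the culture had been slowed to 0.05 per h and returned to 0.1 per h (the switchback). They were picked by their sample labels, with earlier results of these data known, and make up 4 of the 12 libraries of the series. Each stage was held for 5 residence times before sampling, so both groups share the strain, the genotype, the carbon source and the growth rate, and differ by growth history and by the time spent in the chemostat, which cannot be told apart. The remaining libraries, which are wild-type cells at the slow rate, cells with a disrupted FLO8 gene (Δflo8) at each stage, and fixed input DNA, were used only to look up whether a region was also called there. The 4 lists held 1120 of the 3337 peaks of the series, and no pair of the 4 lists was identical.

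FAIRE-Seq (formaldehyde-assisted isolation of regulatory elements) recovers DNA that is not crosslinked to nucleosomes, because such DNA stays in the aqueous phase when fixed and sheared chromatin is extracted with phenol. In yeasts the recovered DNA comes mainly from the nucleosome-depleted stretches upstream of genes, where transcription factors and the transcription machinery bind. A region that is open at one time and closed at another can carry a trace of earlier growth conditions, and subtelomeric FLO genes of *Saccharomyces cerevisiae*, which encode cell-surface adhesins, are known for such heritable silencing.

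The peaks of the 4 lists merged into 442 loci, a locus being the union of all peaks that share at least 1 bp. Of these, 146 loci (33.0%, exact Clopper-Pearson interval from 28.7% to 37.6%) carried a peak in all 4 lists. A further 81 loci were held by both switchback lists and by neither fast list, whereas 5 loci were held by both fast lists and by neither switchback list, which is 18.3% and 1.13% of the loci. The switchback lists were also longer. Fast replicates 1 and 2 held 219 and 199 peaks, and switchback replicates 1 and 2 held 356 and 346 peaks. The stages did not overlap, and the mean was 1.68-fold higher at the switchback (351 ± 7.07 against 209 ± 14.1 peaks, SD, n = 2, two-sided exact permutation test p = 0.333, the smallest that the 6 arrangements of 4 lists allow).

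All 4 lists ended near the same score, the value with which the authors' peak caller ranks each peak. The lowest scores were 154.38, 150.92, 150.23 and 150.59 in fast replicates 1 and 2 and switchback replicates 1 and 2. The 4 lists thus stopped at nearly the same score, whose scale is not stated, and the number of peaks that reached it differed. At rank 199, the length of the shortest list, the score was 171.79 and 150.92 in the fast lists and 256.6 and 241.48 in the switchback lists. At the 146 loci held by all 4 lists the median scores were 361 and 301 in the fast lists against 444 and 438 in the switchback lists, with a median switchback-to-fast ratio of 1.39. At 63% of these loci (92 of 146) both switchback scores lay above both fast scores, and at 4 loci (2.74%) both lay below. The sequencing depth of the libraries is unknown and its part in these score levels and list lengths was not tested, so the comparisons below use the rank within a list, or the 199 highest-scoring peaks of each list.

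**Figure D1:**
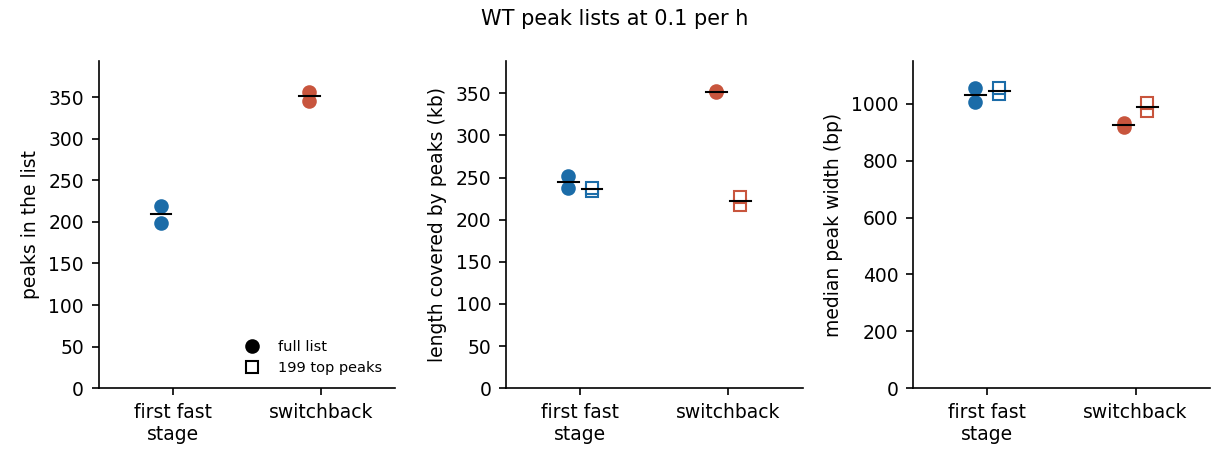
Number of peaks, length covered by peaks (kb) and median peak width (bp) in each wild-type list at 0.1 per h, by stage, with a bar at the mean of 2 libraries. Filled circles are full lists and open squares the 199 highest-scoring peaks of each list. Full switchback lists covered more of the genome, at 351.2 and 352.4 kb, and the order turned when the lists were cut to equal length.

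The peaks covered 251.7 and 238.1 kb in the fast lists and 351.2 and 352.4 kb in the switchback lists. With 199 peaks from each list the fast lists covered 234.0 and 238.1 kb and the switchback lists 217.6 and 227.2 kb, so that the direction was reversed (log2 difference of 0.52 with full lists and -0.086 with equal numbers). The median peak width of a list was lower after the return. The median peak width was 1008 and 1057 bp in the fast lists and 919 and 933 bp in the switchback lists, without overlap between the stages (0.897-fold, log2 difference -0.16). The direction was kept among the top 199 peaks, at 1034 and 1057 bp against 975 and 1004 bp. Each of these differences in length and width had p = 0.333 by the same two-sided exact permutation test, the smallest possible. The full-list medians include 157 and 147 switchback peaks beyond rank 199, with median widths of 866 and 875 bp, against 20 and 0 such fast peaks. At the 146 loci held by all 4 lists, the median switchback-to-fast width ratio of the highest-scoring peak was 0.972. It was narrower at 104 loci and wider at 42.

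Lists of 1 stage shared more of their covered bases than lists of different stages. The Jaccard index, the length covered by both lists as a share of the length covered by either, was 0.658 for the fast pair and 0.634 for the switchback pair. The 4 pairs across stages gave 0.507, 0.517, 0.476 and 0.488, all below both pairs of replicates. With equal numbers of peaks the fast pair had 0.660, the switchback pair 0.612 and the pairs across stages 0.579 to 0.601. The order was the same, and the difference between within-stage and across-stage means shrank from 0.149 to 0.0487. In both cases the one-sided exact permutation p was 0.333, the smallest that the 3 ways of pairing 4 lists allow.

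Several of the strongest open regions kept a high rank at both stages. The locus on chromosome 1 from 2502977 to 2505240, outside the rule for named loci and added after its values were seen, ranked 1 in both fast lists and in switchback replicate 1 and 49 in switchback replicate 2, with scores of 1892.76, 1415.03, 1923.64 and 614.89. The switchback libraries thus disagreed on it. The locus on chromosome 1 from 2498722 to 2500311 ranked 2 and 4 in the fast lists and 2 and 1 in the switchback lists. The locus on chromosome 3 from 751547 to 753180 ranked 6, 7, 4 and 5 in the same order of lists, and that on chromosome 1 from 524806 to 526766 ranked 11, 5, 3 and 3. The last 3 of these loci lie in the top 11 of every list. Other loci near the top fell by some places. On chromosome 1, the locus from 1940792 to 1942888 ranked 4 and 2 and then 11 and 9, and the locus from 2458214 to 2460281 ranked 3 and 3 and then 17 and 10. The 25 highest-scoring peaks of each list made 39 loci, of which 12 were common to all 4 lists, 4 were held by both fast lists alone and 2 by both switchback lists alone. Over the 146 loci held by all lists, the rank correlation (Spearman, across loci, which are not replicates) was 0.857 between the fast lists, 0.750 between the switchback lists and 0.635 to 0.696 across stages. The 5 highest-ranked shared loci all had peaks in both wild-type slow lists and in both Δflo8 lists of the first fast stage. Among all 146 shared loci these shares were 88.4% and 80.1%. The Δflo8 switchback list lacked the loci starting at 1940792 and 2458214, and held 58.2% of the 146.

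With the 199 highest-scoring peaks of each list, 286 loci were obtained, of which 121 (42.3%) were held by all 4 lists. The large excess of switchback loci was no longer present. Both fast lists and neither switchback list held 14 loci (4.9%), and both switchback lists and neither fast list held 12 loci (4.2%). The remaining loci were held by 1 list only (31 in a fast list, 37 in a switchback list), by both lists of 1 stage and 1 of the other (25 with both fast lists, 21 with both switchback lists), or by 1 list of each stage (25). Neither stage had the higher count at every list length, with 3 fast and 7 switchback loci among the top 50 peaks, 7 and 7 among the top 100, and 10 and 12 among the top 150.

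**Figure D2:**
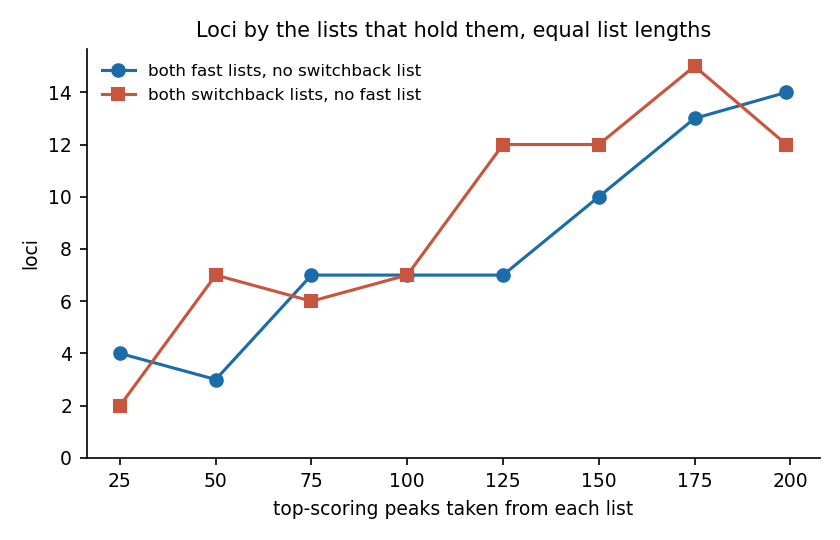
Number of loci (vertical axis) held by both lists of 1 stage and by no list of the other, against the number of top-scoring peaks taken from each list (horizontal axis). Circles are loci of the first fast stage and squares loci of the switchback; the counts are 14 and 12 at 199 peaks and 7 and 7 at 100 peaks.

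The 14 fast loci are numbered here by their mean rank relative to list length. Fast locus 1, on chromosome 2 from 1584410 to 1586155, ranked 24 and 55 in the fast lists and 244 and 279 in the switchback lists. Its scores were 695.52 and 380.22 at the first fast stage and 220.2 and 183.83 at the switchback, so it was still called, but low in both lists. Fast locus 2, on chromosome 4 from 229062 to 230468, ranked 55 and 33 before slow growth. It was not called in switchback replicate 1 and ranked 276 in switchback replicate 2. Fast locus 3, on chromosome 2 from 1959429 to 1960573, ranked 74 and 63 in the fast lists, with scores of 372.95 and 348.31, and was called in neither full switchback list. By mean rank it was the highest of the loci absent from both. Fast locus 4 (chromosome 1, 2330678 to 2332181) ranked 70 and 146 and then 233 in switchback replicate 1 only, and fast locus 5 (chromosome 2, 894064 to 895602) ranked 116 and 126 and then 319 in switchback replicate 1 only. The other 9 fast loci ranked between 117 and 198 in the fast lists, that is, in the lower part of lists of 219 and 199 peaks.

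Absence from the top 199 was not always absence from the list. In the full switchback lists 6 of the 14 fast loci were called in both, 4 in 1 and 4 in neither. At the 6 loci called in both, scores were lower in both switchback libraries at 1 locus (fast locus 1), higher in both at 1 locus and overlapping at 4 loci, so that at 5 of the 6 the lower rank did not go with lower scores in both libraries. None of the 14 lay over a region called in the wild-type input, and none of the 12 switchback loci did, beside 4.9% of all 286 loci.

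By chromosome, the 14 fast loci fell 4, 6, 0 and 4 on chromosomes 1 to 4, beside 35.3%, 19.9%, 21.3% and 23.4% of all 286 loci. They included 2 neighbouring pairs. On chromosome 2, fast locus 8 (890068 to 891051) and fast locus 5 were separated by 3012 bp, and on chromosome 4, fast locus 9 (16979 to 18132) and fast locus 6 (21136 to 22138) by 3003 bp. Of the 11 gaps between neighbouring fast loci, 2 were under 10 kb, beside 29.8% of the gaps among the more closely spaced 286 loci. The 2 pairs were picked out after their positions were seen.

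**Figure D3:**
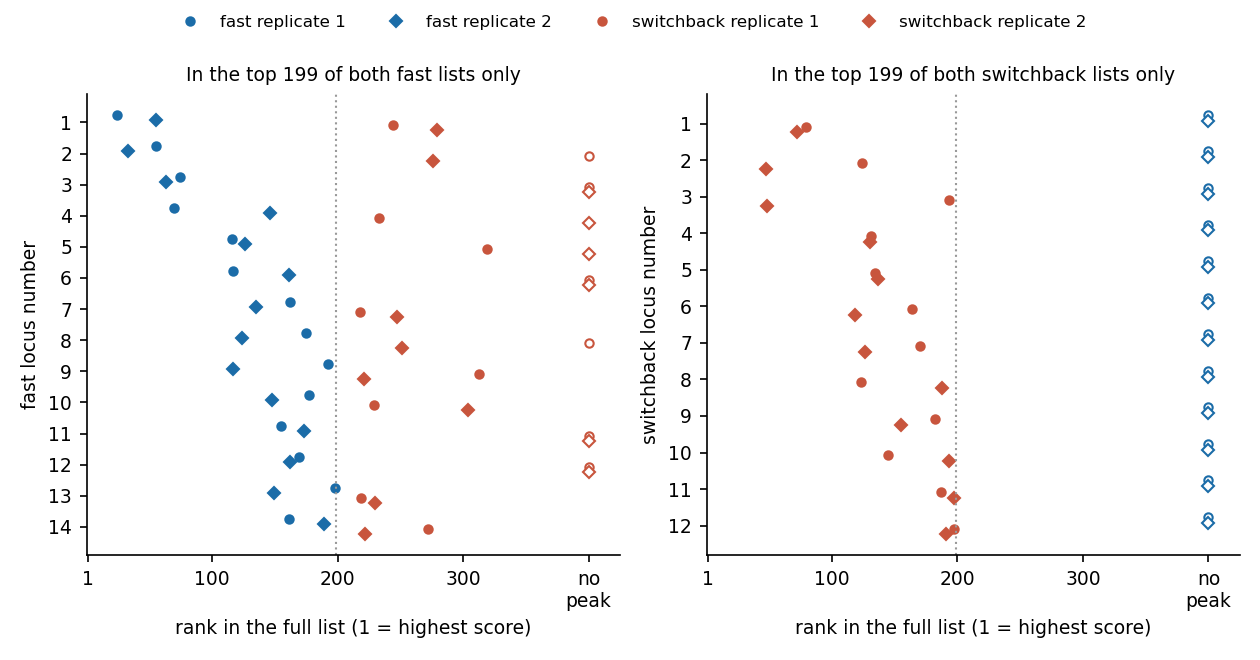
Rank in the full list (horizontal axis, 1 is the highest score) of the 14 fast loci (left) and the 12 switchback loci (right) in each of the 4 libraries. Filled symbols are called peaks, open symbols at the right edge mark libraries without a peak, and the dotted line stands at rank 199. The 12 switchback loci have no peak in either fast library, whereas 10 of the 14 fast loci have a peak in at least 1 switchback library. List length limits this contrast, since the fast lists hold only 20 and 0 peaks beyond rank 199 and the switchback lists 157 and 147.

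The 5 loci held by both full fast lists and by neither full switchback list were fast loci 3, 6, 11 and 12 and a locus on chromosome 4 from 1490462 to 1492125. The latter ranked 212 of 219 in fast replicate 1 and 72 of 199 in fast replicate 2, so the 2 fast libraries disagreed on it. Fast locus 6 ranked 117 and 161. Fast locus 11, on chromosome 2 from 2221467 to 2222397, ranked 155 and 173, and fast locus 12, on chromosome 1 from 1761116 to 1762189, ranked 169 and 162. Apart from fast locus 3, each thus lay in the lower-scoring part of at least 1 fast list.

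The 12 switchback loci with equal numbers of peaks had no peak in either full fast list. Those lists left little room for one, as they hold only 20 and 0 peaks beyond rank 199. The switchback lists, in which the fast loci were looked up, hold 157 and 147 such peaks. Switchback locus 1, on chromosome 2 from 1919229 to 1920485, was absent from the fast lists and ranked 79 and 72 at the switchback, with scores of 446.77 and 472.73. Switchback locus 2, on chromosome 3 from 146417 to 147524, ranked 124 and 47, and switchback locus 3, on chromosome 4 from 1670337 to 1671979, ranked 193 and 48. At both of these replicate 2 ranked the locus far higher than replicate 1. Switchback locus 4 (chromosome 4, 1745213 to 1746662) ranked 131 and 130 with scores of 337.67 and 339.04, and switchback locus 5 (chromosome 2, 114584 to 115532) ranked 134 and 137. These agreed closely between libraries. The other 7 ranked between 118 and 197, and 3, 5, 2 and 2 of the 12 lay on chromosomes 1 to 4.

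The 81 loci restricted to the full switchback lists lay mostly in the part of those lists that had no counterpart in the shorter fast lists. They ranked 63 to 344 in switchback replicate 1 (median 245 of 356) and 47 to 345 in switchback replicate 2 (median 249 of 346). Only 12 of the 81 were within the top 199 of both lists, 46 were below it in both, and the others were within it in 1 list. They were narrower than the shared loci, with median widths of 897 and 903 bp against 999 and 1032.5 bp at the 146 loci in the same 2 libraries. Peaks below rank 199 were narrow in general, with medians of 866 and 875 bp in the switchback lists and 910.5 bp in fast replicate 1. The 81 loci fell 24, 20, 18 and 19 on chromosomes 1 to 4, beside 31.9%, 22.2%, 21.7% and 24.2% of all 442 loci. Among them 3 of 77 neighbouring gaps were under 10 kb, beside 40.4% of the gaps between neighbours among the more closely spaced 442 loci.

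The stage-restricted loci were next looked up in the other FAIRE lists. Of the 81 switchback loci, 15 (18.5%) were held by wild-type slow replicate 1, which has 203 peaks, and 65 (80.2%) by wild-type slow replicate 2, which has 382 peaks. Among all 442 loci these shares were 43.9% and 75.6%. The slow libraries thus differed on these loci. At the first fast stage of the Δflo8 strain, both lists held 44 of the 81 loci (54.3%), near the share of all loci (57.0%), and neither held 29. These Δflo8 lists have 464 and 357 peaks and are longer than the wild-type fast lists, with 219 and 199. The 146 loci shared by all 4 lists had peaks in both of those Δflo8 lists in 80.1% of cases.

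For equal numbers of peaks, both Δflo8 lists of the first fast stage held 8 of the 12 switchback loci (66.7%) and 3 of the 14 fast loci (21.4%), beside 63.3% of all 286 loci. Wild-type slow replicate 2 held 10 of the 12 and 11 of the 14, beside 90.6%, and slow replicate 1 held 5 of the 12 and 5 of the 14, beside 65.4%. The single Δflo8 switchback list, with 150 peaks, held 6 of the 12 switchback loci and 0 of the 14 fast loci, beside 43.4%. Switchback loci 2, 5 and 9 (the last on chromosome 3 from 210438 to 211399) were held by all 6 other FAIRE lists, so that the 2 wild-type fast lists were alone in lacking them. Switchback locus 4 and fast locus 5 had no peak in any of the 6.

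The 146 loci held by all 4 lists allowed a test at each locus. Within each list the ranks among these 146 loci were turned into normal scores and compared by limma, and 1 locus (0.685%) passed an adjusted p of 0.05. This was fast locus 1, which extends on chromosome 2 from 1584410 to 1586194 in the full lists. In the full lists, which are longer at the switchback, it ranked 24, 55, 244 and 279. On the tested scale of ranks among the 146 loci, it differed by -2.75 normal-score units, switchback minus first fast stage (SE 0.301, limma adjusted p = 0.0353). Its peak widths were 1736 and 1278 bp at the first fast stage and 817 and 786 bp at the switchback, which did not overlap, although the width change did not pass the test (log2 difference -0.89, limma adjusted p = 0.174). The call was lost when any 1 of the 4 libraries was left out, with the difference between -2.79 and -2.23. At an unadjusted p of 0.05, 24 of the 146 loci passed, 12 in each direction.

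**Figure D4:**
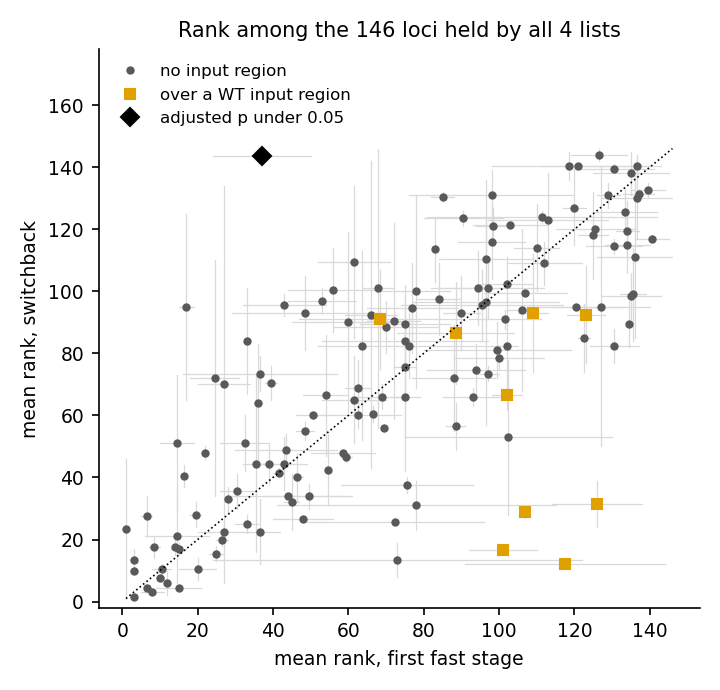
Mean rank among the 146 loci held by all 4 lists at the first fast stage (horizontal axis) and at the switchback (vertical axis), with rank 1 the highest score and grey lines spanning the 2 libraries of each stage. The diamond is the locus with an adjusted p of 0.0353, and squares are the 9 loci over a region called in the wild-type input, 8 of which rank higher at the switchback.

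Several loci that rose most in rank lay over regions called in the input, where enrichment is present without the FAIRE extraction. On chromosome 3, the locus from 1504957 to 1507436 ranked 101 and 134 and then 16 and 17 (limma adjusted p = 0.0764). On chromosome 1, the locus from 2804329 to 2805240 ranked 124 and 131 and then 27 and 31 (limma adjusted p = 0.0764). On chromosome 4, the locus from 1805577 to 1806498 ranked 136 and 183 and then 40 and 24 (limma adjusted p = 0.0999), and that from 1751807 to 1752897 ranked 100 and 190 and then 13 and 11 (limma adjusted p = 0.161). The stages did not overlap at any of these loci, none passed the test, and all lie over input regions. They are outside the rule for named loci and were chosen after their values were seen. Of the 9 shared loci over input regions, 8 ranked higher at the switchback, with a median difference of 0.65 normal-score units, whereas 62 of the other 137 ranked higher, with a median of -0.061. Regions of the input were overlapped by 11, 11, 14 and 16 peaks of the 4 lists (5.02%, 5.53%, 3.93% and 4.62%), the switchback lists being the longer ones. Whether the input signal has a part in these ranks was not tested.

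The width of the highest-scoring peak at each shared locus gave a measure that the ranks do not use. Width and rank come from the same called peak and are not independent evidence. By limma, the highest-scoring peak was narrower at the switchback at 4 of the 146 loci (2.74%, adjusted p under 0.05) and wider at none. At narrowed locus 1, described below, this peak was 1 of 2 parts of a split region. That call therefore does not measure the width of the whole region. With the replicate number as a block, which the labels do not tie to cultures, no locus passed (smallest limma adjusted p = 0.117). At an unadjusted p of 0.05, 18 were narrower and none wider. Over all 146 loci, 104 were narrower and 42 wider, with a median width ratio of 0.972. The 4 narrowed loci all ranked lower at the switchback than at the first fast stage in both libraries, and lie on chromosomes 1, 2 and 3.

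Narrowed locus 1, on chromosome 2 from 1739075 to 1741104, was 1 peak of 1979 and 1980 bp in the fast lists and was split into 2 peaks in each switchback list. In switchback replicate 1 the parts were 1001 and 921 bp wide with 79 bp between them, and in switchback replicate 2 they were 893 and 935 bp wide with 188 bp between them. The parts summed to 1922 and 1828 bp, so that most of the length was still called and the region was interrupted near its middle. The test measured only the highest-scoring part, which was the left one in switchback replicate 1 and the right one in switchback replicate 2. It thus compared different parts of the region and did not measure its full extent. The log2 width difference was -1.03 (SE 0.0501, limma adjusted p = 0.0167), and the ranks were 19, 15, 68 and 170.

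Narrowed locus 2, on chromosome 2 from 1137100 to 1138719, was 1620 and 1520 bp wide at the first fast stage and 998 and 969 bp wide at the switchback (log2 difference -0.67, SE 0.0509, limma adjusted p = 0.0367). Its peaks started within 45 bp of each other in all 4 lists, whereas the right end stood at 1138719 and 1138631 in the fast lists and at 1138112 and 1138113 in the switchback lists. The loss was thus on 1 side, and the 2 switchback libraries placed the new end within 1 bp of each other.

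Narrowed locus 3 was the strong region on chromosome 1 from 2458214 to 2460281, with widths of 2061, 2034, 1552 and 1591 bp (log2 difference -0.38, SE 0.0363, limma adjusted p = 0.0429). Its right end moved by -467.5 bp on average, that is inward, and its left end by 8.5 bp. Narrowed locus 4, on chromosome 3 from 2176982 to 2178285, measured 1268, 1304, 980 and 995 bp (log2 difference -0.38, SE 0.0372, limma adjusted p = 0.0429). Here it was mainly the left end that moved inward, by 237 bp, and the right end moved by -61.5 bp, also inward. At both loci the stages were further apart than the replicates of either stage. Without fast replicate 1, fast replicate 2 or switchback replicate 2 none of the 4 width calls was kept, and without switchback replicate 1 only narrowed locus 1 was kept (limma adjusted p = 0.0469).

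**Figure D5:**
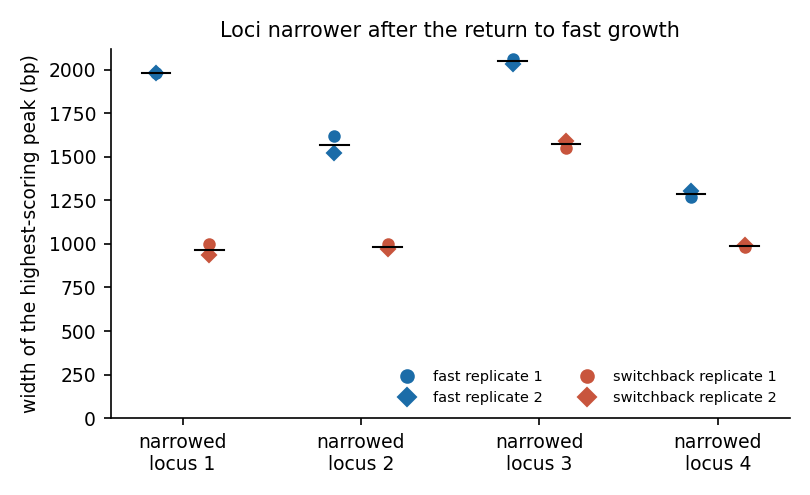
Width (bp) of the highest-scoring peak at the 4 narrowed loci in each library, with a bar at the mean of 2 libraries per stage. At each locus both switchback libraries lie below both fast libraries. At narrowed locus 1 the switchback peak is 1 of the 2 parts into which the region was split, the left in replicate 1 and the right in replicate 2.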

How the data were processed

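Per the methods of the study, the authors sequenced FAIRE DNA, aligned reads to the CBS7435 genome with BWA (version 0.7.13 in the submitters' processing notes, with SAMtools 1.3), dropped reads of mapping quality under 20 and called peaks with MACS2 on pooled replicates against input. The deposited lists hold 1 library each, and the peak names of the wild-type lists have the style of an earlier MACS, so the caller of these lists is not settled. The deposited score (column 5) has no stated scale, read depth is unknown, and scores were used through ranks within a list.

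Peaks sharing at least 1 bp were merged into loci, in 1-based CBS7435 coordinates. The 199 highest-scoring peaks (the shortest list) gave the equal-number comparison. Ranks and log2 widths at loci held by all 4 lists were tested with limma 3.58.1 (R 4.3.3, Benjamini-Hochberg over 146 loci). The fit was first run on simulated ranks with a common spread at every locus and large shifts. That run does not bear on the calls reported here. List measures were compared by exact permutation in Python 3.11.15 with SciPy 1.17.1. The loci named are the 5 best-ranked of each category and all loci called, with additions stated in the text. Alternatives were equal numbers, the higher-scoring 50%, removal of peaks over input, other overlap and merging rules, other scales, the replicate block and each library left out. The top 50, 100 and 150 peaks were added after seeing the data. The comparison and its members were chosen with earlier results of these data known. The labels call the libraries biological replicates but do not link them to cultures. Stages were run in turn, so 1 culture may have given both stages, and p-values measure the spread between these libraries. Gene placement was not analysed here, because the gene table at hand is of strain GS115 and carries no CBS7435 locus tags. Intervals cover counting error only.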

Additional observations from a re-analysis of the deposited data

How the results depend on the processing

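The direction of the covered length turned with equal numbers of peaks (log2 difference -0.086, against 0.52), while peak number, median width and list similarity kept their directions without any 1 library (0.68 to 0.82, -0.19 to -0.12 and 0.12 to 0.17, and 0.48 to 0.56 for covered length). The count of fast loci, 5 with full lists, was 12 to 14 with full lists without 1 library, 14 with equal numbers, 3 with the higher-scoring 50% of each list, and 3 and 10 with the top 50 and 150 peaks. The count of switchback loci, 81 with full lists, was 99 to 142 without 1 library, 12 with equal numbers, 41 with the higher-scoring 50%, and 7, 7 and 12 with the top 50, 100 and 150 peaks. Loci held by all lists numbered 70 with the higher-scoring 50% and 26, 54 and 93 with the top 50, 100 and 150 peaks. These settings use shorter lists or require fewer lists, and the part this has in the counts was not tested. Rank calls numbered 5 with centred log2 scores (4 higher, 1 lower), 4 with equal numbers (3 higher, 1 lower, without fast locus 1, which is then not in all lists), 0 with the rank divided by list length, 0 with the higher-scoring 50% and 0 without any 1 library, and width calls 0 to 3 without 1 library (1 of the 4 kept among those 3); the cause was not tested.

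The deviations of same-numbered libraries had a correlation of 0.0241 over 146 loci, and with 2 pairs this does not show whether numbers mark shared cultures. With the replicate block, rank calls numbered 1 and width calls fell from 4 to 0 (smallest limma adjusted p = 0.117). With 2 libraries per stage, no exact test of a list measure can go below 0.333, and without read depth a region missing from a list cannot be told from one just under its lowest score.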
